A study of Sus scrofa with 23 samples.

Results

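Fatty acid binding protein 4 (FABP4), adiponectin (ADIPOQ) and leptin (LEP) are the 3 genes described here, over articular cartilage of pigs that were affected or not affected by osteochondrosis, a disorder of the cartilage that turns into bone beneath joint surfaces. Every probe set of the Affymetrix Porcine Genome Array whose annotated gene symbol was one of these 3 was taken. They are 3 of 6765 genes with a symbol of their own in that annotation, and 6 of 24123 probe sets: 1 for FABP4, 1 for ADIPOQ and 4 for LEP. The 3 genes were chosen as signs of fat or marrow in pieces cut from a joint surface.

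The animals came from a Duroc x Pietrain cross and were sampled at 2 joint surfaces, with affected and non-affected sibs in the design. The femoral group, from the medial femoral condyle, had 4 affected and 4 non-affected samples. The humeral group, from the medial part of the humeral condyle, had 7 affected and 6 non-affected samples. These 21 samples stand for 23 arrays, because 2 pairs of arrays of 1 group were so alike that they were averaged (femur non-affected 1 and 2, and humerus affected 5 and 6). The labels give no age and no treatment for any group. Sibs are not identified in them, nor is it stated that the samples of a group are from separate animals, so a p-value here reflects sample-to-sample spread, which may be technical.

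Fat cells store triglyceride in a droplet and release hormones. FABP4 is a small carrier of fatty acids in the cytosol. It is abundant in adipocytes, and it is also made by the endothelium of capillaries and by macrophages. Adiponectin and leptin are hormones secreted into blood. Adiponectin expression is largely confined to adipocytes, while leptin is made mainly by them and tells the brain about fat stores. A cartilage surface has no fat and no vessels of its own, whereas the marrow spaces of the underlying bone hold adipocytes, vessels, macrophages and blood-forming cells, and the growing cartilage of young pigs carries vessels in canals.

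Levels are given on the log2 scale as the authors deposited them, and differences are differences of these log2 levels. The scale has a floor at 4. A level can be compared between samples for 1 probe set, but not between probe sets. A probe set entered the tests when its mean was at or above the 30th percentile, 5.30, and was not a control of the array. A call is an adjusted p under 0.05 in limma after Benjamini-Hochberg adjustment over 16799 probe sets. Of the 6 probe sets, FABP4, ADIPOQ and the brightest of LEP were tested. A second LEP probe set, with a mean of 4.33, lay under the filter. The other 2 LEP probe sets, named "5" and "M" on the array, belong to its control set, and were fitted only in an added analysis without filter.

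The cartilage list had a mean between 10.8 and 12.5 in every group, and its defining genes ACAN and COL2A1 were above the floor in all samples. The adipocyte identity of the 3 genes was set beside the other defining adipocyte genes. CFD, the secreted protease adipsin, had a mean of 7.0 and was above the floor in all samples. LIPE, the hormone-sensitive lipase of fat cells, had a mean of 4.98 and lay under the filter. RETN, the hormone resistin, had a mean of 5.73 and was at the floor in 5 samples. ADRB3, the beta-3 adrenergic receptor, had a mean of 7.31 and was above the floor in all samples. PLIN1 and CIDEC, coats of the fat droplet, were planned as markers too. They were not among the 37 adipocyte list genes measured, so they could not be read here. FABP4 spanned 7.61 on the log2 scale over the 21 samples. ADIPOQ spanned 1.04 and the brightest LEP probe set 1.57. The 3 genes did not move as one group, and each is described by itself.

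**Figure D1:**
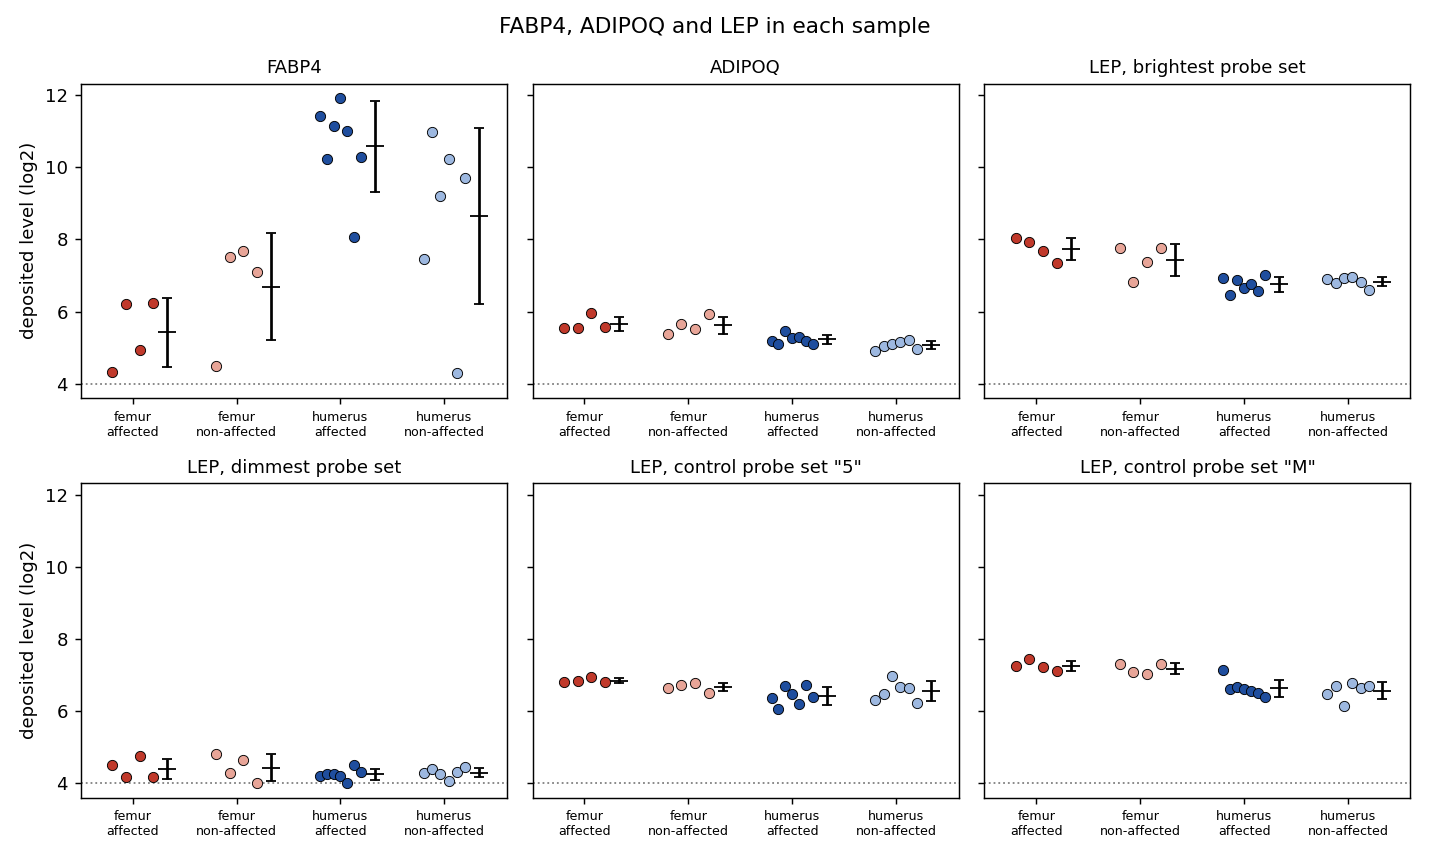
Deposited level (log2, vertical axis) of the 6 probe sets in each of the 21 samples, grouped as femur affected, femur non-affected, humerus affected and humerus non-affected from left to right. Points are samples, bars are the group mean ± SD, and the dotted line is the floor at 4. FABP4 ranges from 4.31 to 11.9, while no other probe set spans more than 1.57.

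FABP4 varied widely between samples and was lower in the femur than in the humerus. In femoral cartilage its level was 4.31, 6.20, 4.95 and 6.25 in the 4 affected samples, against 4.48 in the averaged pair and 7.51, 7.68 and 7.10 in the other non-affected samples. Of the femoral non-affected samples, 3 lay above all affected ones, and the averaged pair lay within the affected range. In humeral cartilage the affected samples ran between 8.06 and 11.9 with a median of 10.99, against 4.31 to 10.97 with a median of 9.44 in the non-affected samples. In the humerus, 4 of 7 affected samples lay above every non-affected one, and the lowest non-affected sample stood far below all the others at the level of the lowest femoral ones.

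No difference in FABP4 between affected and non-affected cartilage passed the test. In the femur FABP4 averaged 5.43 ± 0.96 in affected samples and 6.69 ± 1.49 in non-affected samples (SD, n = 4 each). The difference was -1.26 ± 1.09 (SE), with a 95% interval of -3.54 to 1.02 and an adjusted p of 0.529 in limma. Of all probe sets tested, 1.14% were called in the femur. The exact permutation p was 0.2, where the smallest that 4 against 4 samples can give is 0.0286. Leaving out the averaged pair femur non-affected 1 and 2 changed the difference to -2.0 (adjusted p = 0.310).

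In the humerus FABP4 averaged 10.6 ± 1.26 in affected samples and 8.64 ± 2.43 in non-affected samples (SD, n = 7 and 6). The difference was 1.93 ± 0.86 (SE), or 3.82-fold with a 95% interval of 1.1 to 13.2, at an unadjusted p of 0.0359 and an adjusted p of 0.759 in limma. No probe set of the 16799 passed in this comparison (0% called), and 1100 had an unadjusted p under 0.05. The exact two-sided permutation test of FABP4 alone gave p = 0.0874, or 0.350 after adjustment over the 12 tests of the 6 probe sets at both sites. Without humerus non-affected 5 the difference was 1.07, with an adjusted p of 0.999. Over both sites together the difference was 0.71 ± 0.74 (adjusted p = 0.841, 0% of probe sets called, 1223 at an unadjusted p under 0.05), and 0.12 without humerus non-affected 5.

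The FABP4 differences had opposite signs at the 2 sites, negative in the femur and positive in the humerus. The test of that contrast, the femoral minus the humeral status difference, gave -3.19 ± 1.39 (SE) with an unadjusted p of 0.0323 and an adjusted p of 0.225. In this comparison 0.268% of probe sets were called, and FABP4 was not among them.

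Between the sites FABP4 was the one of the 3 genes that was lower in the femur. It averaged 6.06 ± 1.34 in 8 femoral samples and 9.68 ± 2.07 in 13 humeral samples (SD). Of the humeral samples, 11 lay above every femoral one, and the other two, humerus non-affected 1 and 5, overlapped them at 7.45 and 4.31. The difference was -3.59 ± 0.76 (SE), a level of 0.0828 times that of the humerus with a 95% interval of 0.0276 to 0.248, and it passed with an adjusted p of 6.29e-04 in limma. A call between the sites is common on this array, since 51.8% of all probe sets tested passed.

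The site difference of FABP4 was also fitted within each status. Among affected samples alone it was -5.15 ± 0.62 (SE, adjusted p = 1.91e-04 in limma), where 5940 of 16799 probe sets were called. Among non-affected samples alone it was -1.95 ± 1.17 and did not pass (adjusted p = 0.216), where 5474 of 16799 were called. When humerus non-affected 5 was also left out, an alternative chosen after seeing the data, the non-affected difference was -2.82 ± 0.78 (adjusted p = 0.0206). In that fit 5762 of 16799 probe sets were called. The test of affected against non-affected site differences is the contrast given above, which did not pass.

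ADIPOQ showed no call with status at either site. Its level was 5.54, 5.55, 5.96 and 5.58 in the femoral affected samples, against 5.39 in the averaged pair and 5.65, 5.50 and 5.92 in the other femoral non-affected samples. These groups overlapped, with 2 non-affected samples below every affected one and 1 affected sample above every non-affected one. In the humerus the affected samples ran between 5.10 and 5.47 with a median of 5.18, against 4.92 to 5.22 with a median of 5.08 in the non-affected samples. There, 3 of 7 affected samples lay above every non-affected one, and the SD within each group was 0.13 in affected and 0.11 in non-affected samples.

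The status difference of ADIPOQ was 0.04 ± 0.13 in the femur (SE, adjusted p = 0.883 in limma) and 0.16 ± 0.10 in the humerus (adjusted p = 0.786). The exact permutation p in the humerus was 0.0315, or 0.189 after adjustment over the 12 tests. With a mean of 5.34 ADIPOQ lay just above the filter at 5.30. The 95% interval of its status difference was -0.22 to 0.30 in the femur and -0.05 to 0.37 in the humerus.

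LEP was read by 4 probe sets. In the brightest, the femoral affected samples had 8.03, 7.93, 7.67 and 7.35, against 7.77 in the averaged pair and 6.82, 7.37 and 7.77 in the other non-affected samples. The humeral affected samples ran between 6.45 and 7.02 with a median of 6.76, against 6.58 to 6.94 with a median of 6.85 in non-affected samples. Status groups overlapped at both sites, and the lowest femoral value, in femur non-affected 3, fell among the humeral ones. The status difference was 0.31 ± 0.19 in the femur (SE, adjusted p = 0.351), or 0.11 without femur non-affected 3 (adjusted p = 0.791), and -0.08 ± 0.15 in the humerus (adjusted p = 0.941).

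The dimmest LEP probe set lay between 4.0 and 4.81 in all samples, with 2 samples at the floor. The control probe set "5" read 6.80 to 6.95 in femoral affected samples and 6.52 to 6.77 in femoral non-affected samples, so these groups did not overlap. The difference was 0.19, with an exact permutation p of 0.0286, which is the smallest possible here, and 0.189 after adjustment over the 12 tests. None of the 12 single-probe-set tests passed after adjustment. The control probe set "M" lay between 6.13 and 7.45.

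The LEP probe sets did not all follow each other. Pearson's r between pairs of them ran from -0.23 to 0.74 over the 8 femoral samples, with the highest between the brightest and "M". Over the 13 humeral samples it ran from -0.34 to 0.41. These r are descriptions, given without a test.

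ADIPOQ and LEP were both higher in the femur than in the humerus, opposite in sign to FABP4. ADIPOQ averaged 5.64 ± 0.20 in femoral samples and 5.16 ± 0.14 in humeral samples (SD, n = 8 and 13). The difference was 0.48 ± 0.08 (SE, 1.40-fold, adjusted p = 6.65e-05 in limma). The brightest LEP probe set averaged 7.59 ± 0.39 in femoral samples and 6.79 ± 0.17 in humeral samples. That difference was 0.80 ± 0.12 (1.75-fold, adjusted p = 3.56e-05). For both genes, 7 of 8 femoral samples lay above every humeral one. These calls stand beside 51.8% of all probe sets called between the sites, and the share of probe sets with a like separation was not computed.

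The other LEP probe sets were fitted without the filter and with control probe sets kept, an analysis added after seeing the data in which 42.9% of 24123 probe sets were called. The femur was higher by 0.62 ± 0.10 in "M" (SE, adjusted p = 4.25e-05) and by 0.28 ± 0.10 in "5" (adjusted p = 0.0349). The dimmest differed by 0.15 ± 0.10 and did not pass (adjusted p = 0.259).

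Several array-wide measures moved with site, and their part in these small site differences was not tested. The bacterial and phage control transcripts of the hybridisation did not overlap between the sites. BioB read 9.71 ± 0.12 in femoral samples and 8.19 ± 0.12 in humeral samples, and CreX read 13.8 ± 0.09 in femoral samples and 13.5 ± 0.07 in humeral samples (SD). The share of probe sets at the floor was 3.75% in femoral samples and 1.70% in humeral samples. The median site difference over all probe sets was -0.12. With each array centred on its own median, it was 0.05. As deposited, 2963 calls were higher and 5744 lower in the femur. The median-centred arrays gave 4911 higher and 3756 lower, and quantile normalization gave 4742 and 3892. Under these 2 scalings FABP4 differed by -3.42 and -3.46, ADIPOQ by 0.65 and 0.62, and LEP by 0.97 and 0.97, all called.

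**Figure D2:**
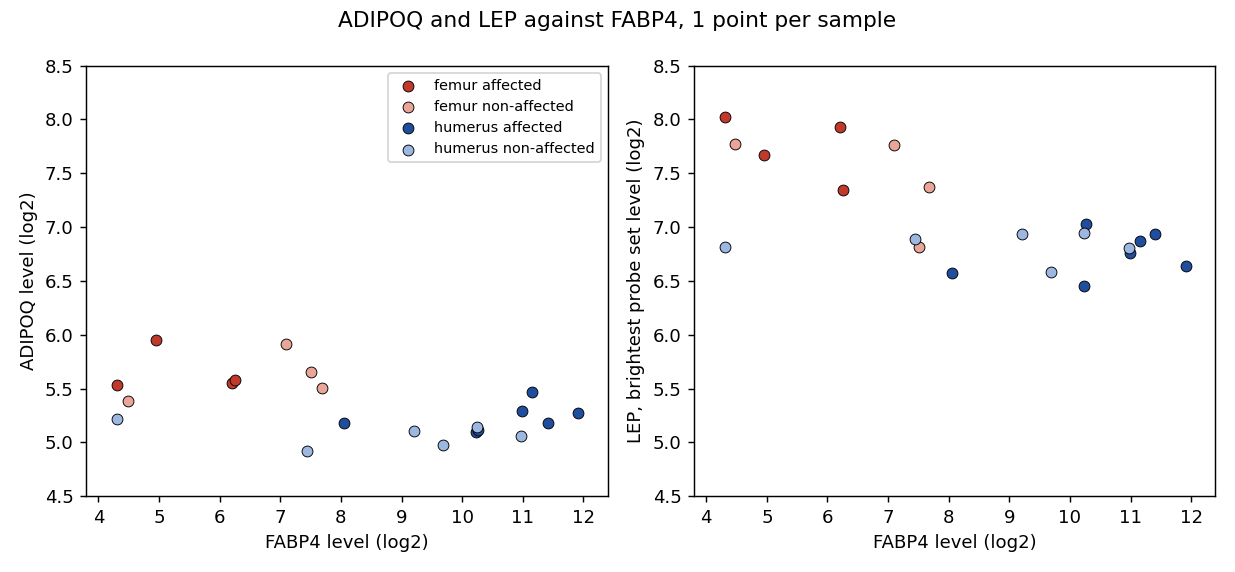
Level of ADIPOQ (left) and of the brightest LEP probe set (right), on the vertical axes, against FABP4 on the horizontal axes (all log2). Each point is 1 of 21 samples, coloured by group. Humeral samples spread from 4.31 to 11.9 in FABP4 while their ADIPOQ stays between 4.92 and 5.47.

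No relation of FABP4 to ADIPOQ or LEP over the samples passed the adjustment. Relations across samples were computed within each site, 84 in all, and p-values were adjusted over these. In the 8 femoral samples Pearson's r between FABP4 and ADIPOQ was 0.15 (exact permutation p = 0.688, adjusted 0.834), and Spearman's rho was 0.19 (exact p = 0.665, adjusted 0.977). Without the 2 samples farthest in FABP4, femur affected 1 and the averaged pair, r was -0.47. In the 13 humeral samples r was 0.26 (permutation p = 0.373, adjusted 0.779), and rho was 0.45 (permutation p = 0.125, adjusted 0.527). The r was 0.42 without the 2 farthest there, humerus non-affected 1 and 5.

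FABP4 and LEP had an r of -0.66 in the femur (exact permutation p = 0.0719, adjusted 0.383) and a rho of -0.74 (exact p = 0.0458, adjusted 0.321), and r was -0.50 without the 2 farthest. In the humerus r was 0.004 (permutation p = 0.991, adjusted 0.991), rho was 0.10 (permutation p = 0.738, adjusted 0.977), and r was 0.22 without the 2 farthest. ADIPOQ and LEP had an r of -0.02 in the femur (exact permutation p = 0.961, adjusted 0.985) and 0.06 in the humerus (permutation p = 0.846, adjusted 0.911). Their rho was -0.36 in the femur (exact p = 0.389, adjusted 0.761) and -0.02 in the humerus (permutation p = 0.950, adjusted 0.977). Without the 2 samples farthest in ADIPOQ, r was -0.58 in the femur and 0.07 in the humerus.

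Other genes of fat cells and lipid storage showed no common change with status. Of 51 genes on the list, 37 were measured and 31 tested. None was called in the femur, in the humerus or over both sites, where 1.14%, 0% and 0% of all probe sets were called. In limma 192 probe sets passed in the femur, and 0 in the humerus and over both sites. The median difference over the 31 was -0.06 in the femur, beside 0.01 over all probe sets, and 0.04 in the humerus, beside -0.01. CFD differed by -1.37 in the femur (adjusted p = 0.239) and by 0.79 in the humerus (adjusted p = 0.789), the same signs as FABP4. All 8 macrophage genes described below had these signs too, so they were not particular to adipocyte genes.

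Between the sites, 4 of the 31 were higher and 8 lower in the femur, 38.7% of the list beside 51.8% of all probe sets. The median over the list was -0.10, beside -0.12 over all. Lower in the femur were RETN, the hormone resistin (-2.09), and CFD (-1.70). The others were VLDLR (-1.02) and APOE (-0.64), a lipoprotein receptor and an apolipoprotein, RBP4 (-0.98), the retinol carrier of blood, ELOVL6 (-0.96), a fatty acid elongase, ACSL1 (-0.94), which activates fatty acids, and LPL (-0.93), lipoprotein lipase. The second probe set of LPL differed by only -0.30. RETN was at the floor in 5 samples.

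Higher in the femur were AGT, angiotensinogen (1.84), PPARG, the master transcription factor of fat cell formation (0.60), ADRB3, the beta-3 adrenergic receptor of fat (0.60), and PNPLA2, the triglyceride lipase (0.37). The values for CEBPA (0.27), SCD (-0.38), FASN (-0.49) and PLIN2 (-0.10) did not pass. CEBPA is a transcription factor of fat cells, SCD and FASN make fatty acids, and PLIN2 coats lipid droplets in many cell types.

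**Figure D3:**
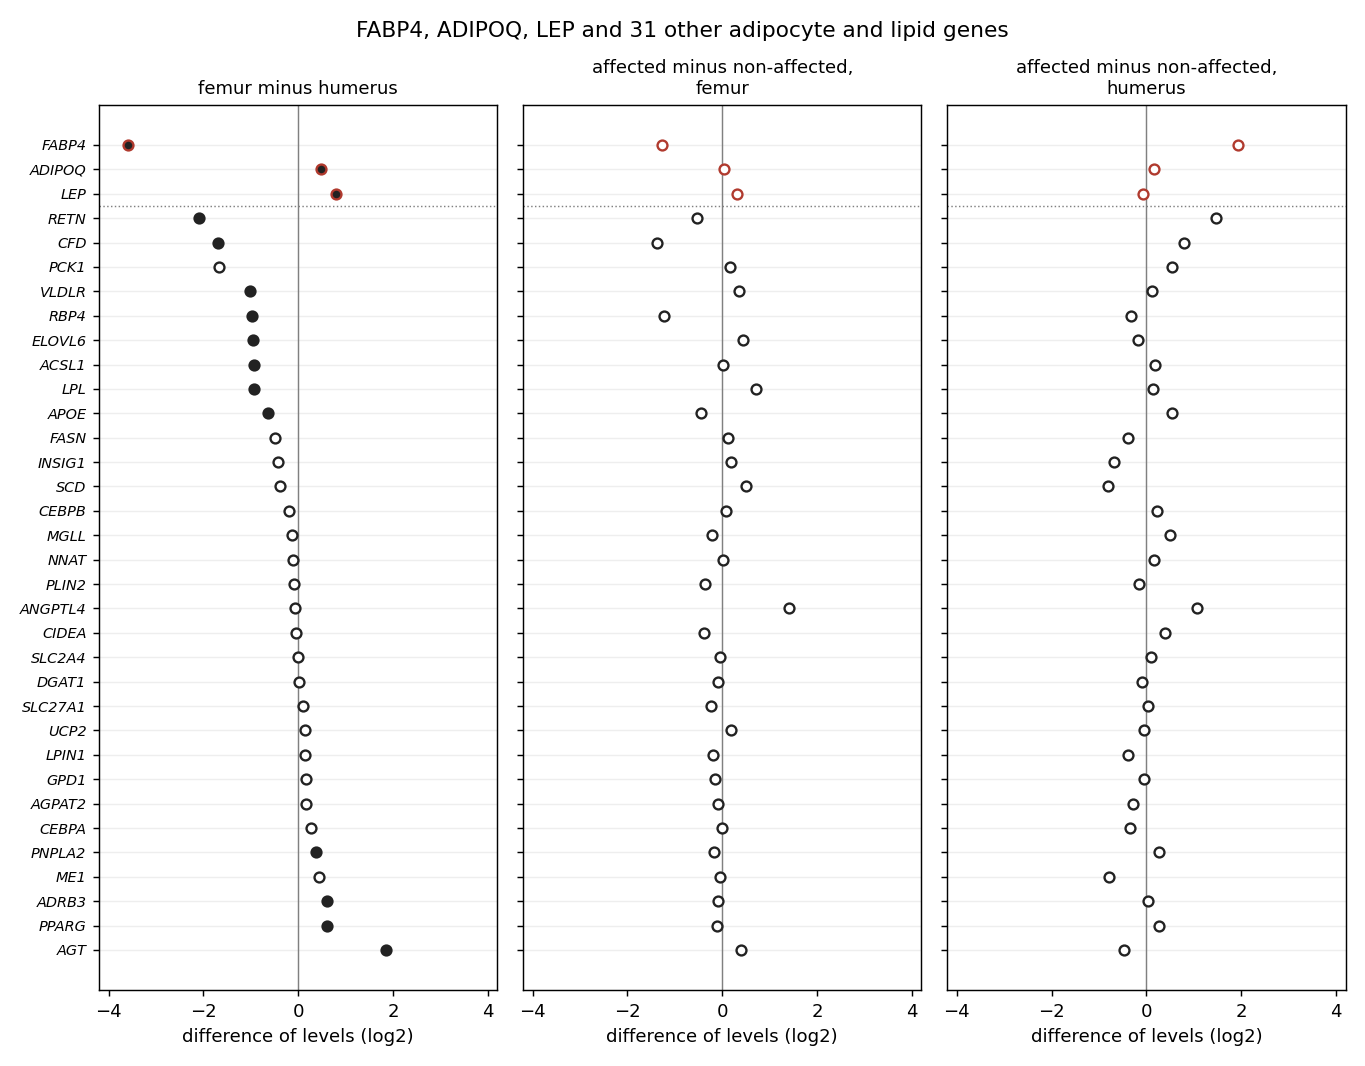
Difference of levels (log2, horizontal axis) for FABP4, ADIPOQ and LEP (red outline, above the dotted line) and 31 other adipocyte and lipid genes, between sites (left) and between affected and non-affected samples in the femur (middle) and humerus (right). Filled points passed an adjusted p of 0.05. Filled points occur only in the left panel, 12 of the 31 list genes and all 3 above the line.

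The receptors for the hormones showed no call with status. ADIPOR1 and ADIPOR2, the adiponectin receptors, differed by -0.002 and 0.01 in the femur and by -0.21 and -0.06 in the humerus. CDH13, the cadherin that binds adiponectin, differed by -0.91 in the femur (adjusted p = 0.201) and 0.04 in the humerus. LEPR, the leptin receptor, had a mean of 4.57 and lay under the filter. Of 9 genes tested on this list of receptors and their signalling partners, none was called with status. Between sites 1 was higher and 3 were lower in the femur, 44.4% of the list beside 51.8% of all probe sets, and ADIPOR2 was the higher one at 0.19.

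Among the genes that ran with FABP4 over the samples were other fatty acid carriers and markers of cells found in vessels, marrow and bone. Genes of a synovial and fibrous tissue list were among them too. The r given here describe samples of 1 site, affected and non-affected together, whose tissue makeup can differ. The neutrophil mean, for example, ran from 4.91 to 11.8 over the humeral samples. These r are read beside the share of all 5902 genes with r over 0.5, 16.1% in the femur and 17.4% in the humerus. In bulk tissue, fewer cells of a type and less RNA per cell cannot be told apart. FABP5, the epidermal fatty acid carrier, had an r with FABP4 of 0.59 in the femur and 0.95 in the humerus. Its second probe set gave 0.53 and 0.95. FABP3, the carrier of heart and muscle, had 0.71 and 0.87. CRABP2, a carrier of retinoic acid and the third gene tested on that family list, had 0.48 in the femur and -0.42 in the humerus.

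Of the 31 adipocyte genes, 2 had an r over 0.5 with FABP4 in the femur (6.45%) and 7 in the humerus (22.6%). CFD had the highest r of that list at both sites, 0.71 in the femur and 0.90 in the humerus. Of the other defining genes tested, RETN had 0.24 in the femur and 0.57 in the humerus, and ADRB3 had -0.29 and -0.25.

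In the RefSeq annotation of assembly Sscrofa11.1, FABP4 and FABP5 are close neighbours with PMP2, another member of the family, between them. Whether the probes of FABP4 and FABP5 also read each other's transcript was not tested, since no probe sequences were at hand. FABP5 differed between femur and humerus by -2.76 and -2.42 in its 2 probe sets, and FABP3 by -1.95, all called. CRABP2 differed the other way, by 0.84 (adjusted p = 0.00111 in limma). All 3 genes tested on this list were thus called between the sites (100%), beside 51.8% of all probe sets. None of the 3 was called with status. FABP5 averaged 8.18 in femoral affected and 8.57 in femoral non-affected samples, and 11.7 in humeral affected and 10.55 in humeral non-affected samples.

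Of 14 vessel genes tested, 8 had an r over 0.5 with FABP4 in the femur and 7 in the humerus. VWF, an adhesive clotting protein of endothelium, had 0.88 in the femur and 0.89 in the humerus. The junction proteins CDH5 and CLDN5 had 0.82 and 0.83 in the femur, and 0.84 and 0.85 in the humerus. TEK, an angiopoietin receptor, had 0.74 in the femur and 0.81 in the humerus, and PECAM1 had 0.69 and 0.70. Other endothelial genes went another way, with ESAM at 0.59 in the femur and -0.61 in the humerus, and ERG at -0.60 and -0.53. All 6 defining genes of the list were tested, with VWF at the floor in 5 samples and CDH5 in 1. The vessel mean was 6.34 to 7.75 in femoral affected and 6.37 to 7.83 in femoral non-affected samples, and 7.80 to 8.87 in humeral affected and 7.0 to 8.68 in humeral non-affected samples.

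Of 8 macrophage genes, 7 had an r over 0.5 at each site. The haemoglobin scavenger receptor CD163 had 0.60 in the femur and 0.90 in the humerus, and AIF1 had 0.71 and 0.89. TYROBP, an adaptor of myeloid receptors, had 0.69 and 0.89. The mean of this list was 4.67 to 6.19 in femoral affected samples and 6.11 to 7.88 in femoral non-affected samples, which overlapped in 1 sample of each. In the humerus it was 7.02 to 9.56 in affected samples and 5.47 to 8.85 in non-affected samples. None of the 8 was called with status, where 1.14% of all probe sets were called in the femur and 0% in the humerus. Between the sites 7 were lower in the femur, 87.5% of the list beside 51.8% of all probe sets. No defining macrophage gene was at the floor in any sample, while AIF1 was at it in 2 samples and TYROBP and FCER1G in 1 each.

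Of 5 osteoclast genes, none had an r over 0.5 in the femur and 4 did in the humerus. Of 8 bone genes the counts were 0 and 4. ACP5, the acid phosphatase of osteoclasts, had an r of 0.44 in the femur and 0.92 in the humerus, and CTSK, their collagen-cleaving protease, had 0.24 and 0.86. IBSP, the sialoprotein of bone matrix, had -0.26 in the femur and 0.87 in the humerus, and the phosphatase ALPL had -0.22 and 0.84. CALCR, the calcitonin receptor of osteoclasts, had 0.09 in the femur and -0.43 in the humerus, and its level was higher in the femur by 0.68. DMP1, a matrix protein of osteocytes, had 0.02 and -0.14. The osteoclast mean was 6.18 to 7.66 over all femoral samples, and 7.66 to 9.77 in humeral affected and 6.85 to 9.78 in humeral non-affected samples. None of the 7 neutrophil granule genes had an r over 0.5 in the femur, and all 7 did in the humerus. The muscle list counted 7 of 8 genes in the femur and 1 of 8 in the humerus, with MYH7, a slow myosin, at 0.85 and 0.16. The synovial and fibrous list counted 2 of 7 genes in the femur and 4 of 7 in the humerus, with CD55 at 0.17 and 0.76. No erythroid and no cartilage gene had an r over 0.5 at either site. The difference in r between the sites was not tested.

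**Figure D4:**
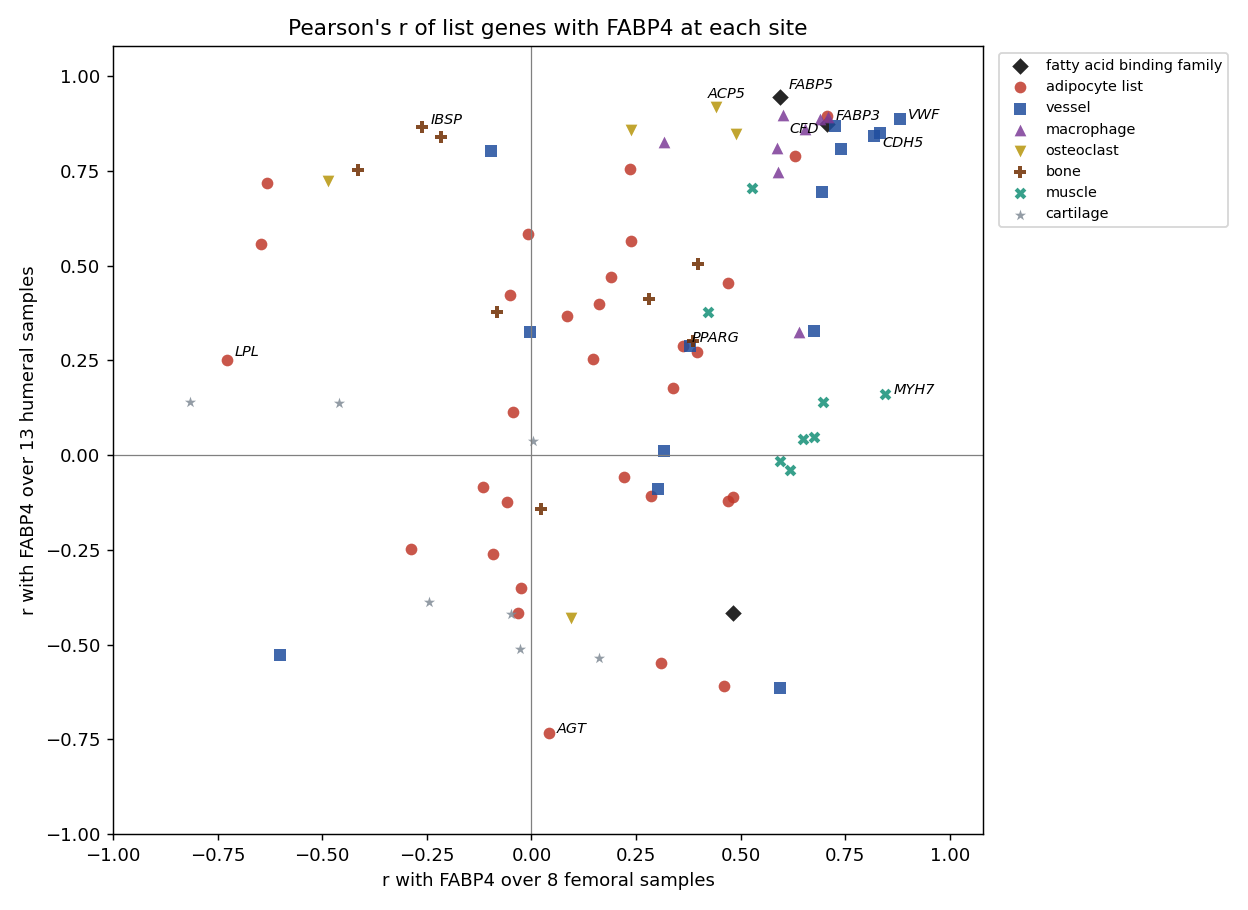
Pearson's r with FABP4 over 8 femoral samples (horizontal axis) and over 13 humeral samples (vertical axis), 1 point per gene, with marker and colour for the gene list. Macrophage genes and vessel genes such as VWF and CDH5 lie at the upper right with FABP3, FABP5 and CFD, while other vessel genes such as ERG (-0.60 in the femur, -0.53 in the humerus) and ESAM (0.59, -0.61) lie low. Bone genes such as IBSP (-0.26 in the femur, 0.87 in the humerus) lie at the upper left and centre, and muscle genes such as MYH7 near 0 on the vertical axis.

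The mean of each list was set against FABP4 as a sum of the marker signal. In the humerus the osteoclast mean had r = 0.86 (permutation p = 2e-05, adjusted 8.40e-04) and rho = 0.88 (adjusted permutation p = 0.0101). Without humerus non-affected 1 and 5 r was 0.85. The bone mean had r = 0.88 (adjusted permutation p = 0.00644) and rho = 0.84 (adjusted permutation p = 0.0281), and 0.92 without those samples.

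The macrophage mean had r = 0.86 (adjusted permutation p = 0.0111) and rho = 0.63 (adjusted permutation p = 0.261), and r was 0.56 without those samples. The mean of FABP3, FABP5 and CRABP2 had r = 0.94 (adjusted permutation p = 8.40e-04), rho = 0.71 (adjusted permutation p = 0.124), and 0.82 without them. The vessel mean had r = 0.80 (adjusted permutation p = 0.0573) and rho = 0.59 (adjusted permutation p = 0.283). It rested on those samples, since r was 0.23 without them. The synovial and fibrous mean had r = 0.73 (adjusted permutation p = 0.110) and rho = 0.38 (adjusted permutation p = 0.635), and r was 0.09 without those samples. No list mean passed in the femur, where FABP3, FABP5 and CRABP2 came closest with r = 0.90 (exact permutation p = 0.0065, adjusted 0.078).

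The mean of the 31 adipocyte list genes had r = 0.78 with FABP4 in the femur (exact permutation p = 0.0299, adjusted 0.209) and 0.63 in the humerus (permutation p = 0.0184, adjusted 0.165). Its rho was 0.71 in the femur (adjusted exact p = 0.323) and 0.74 in the humerus (adjusted permutation p = 0.103). Without the 2 samples farthest in FABP4, r was 0.53 in the femur and 0.73 in the humerus. This mean ran between 7.53 and 7.73 in femoral samples and between 7.55 and 8.23 in humeral ones. Neither ADIPOQ nor LEP passed against any of the lists at either site.

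**Figure D5:**
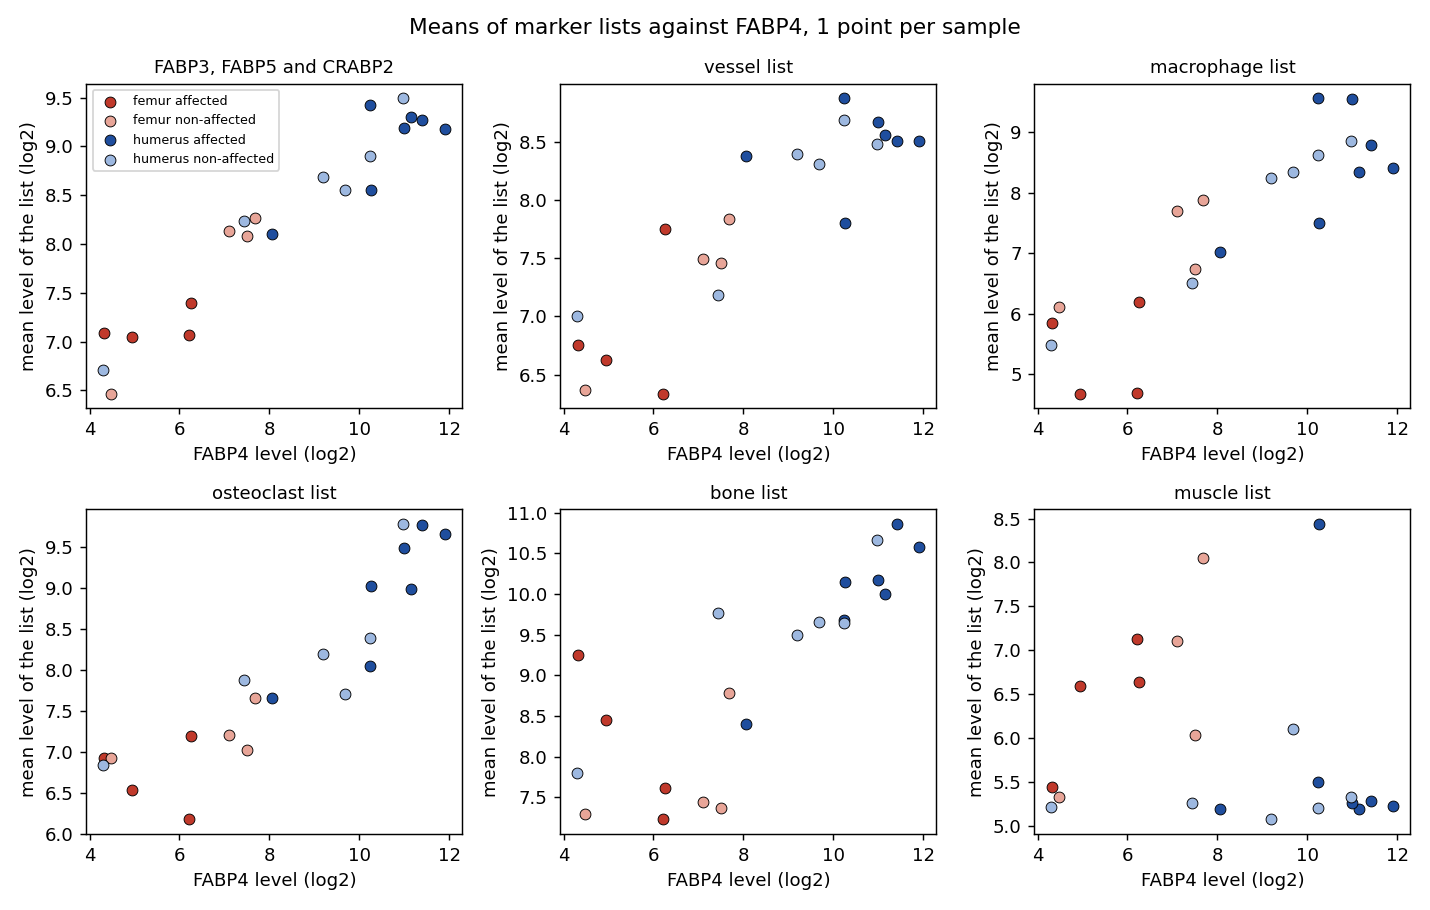
Mean level of 6 gene lists (log2, vertical axes) against FABP4 (log2, horizontal axes), 1 point for each of 21 samples, coloured by group. The osteoclast mean climbs with FABP4 along the humeral samples (r = 0.86), and the muscle mean is highest in humerus affected 8 at 8.44, a sample of middling FABP4.

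Humerus non-affected 5 stood apart in FABP4 and in these lists. At 4.31 it had the lowest FABP4 of all 21 samples. It also had the lowest mean of its group for the vessel list (7.0), the macrophage list (5.47), the bone list (7.80), the osteoclast list (6.85) and the list of FABP3, FABP5 and CRABP2 (6.71). The same held for the synovial and fibrous list (8.85) and for the B cell list, read by JCHAIN alone (5.03). Its adipocyte (7.71), erythroid (7.02) and neutrophil (5.11) means were not the lowest of its group. Its ADIPOQ, at 5.22, was the highest of its group, and its cartilage mean of 12.1 lay within the range of its group. Among femoral samples the averaged pair of non-affected arrays had the lowest FABP4 of its group, with 4.4 and 4.57 in the 2 arrays. It also had the lowest vessel (6.37), macrophage (6.11), adipocyte (7.53), bone (7.29) and osteoclast (6.93) means of its group. The same held for the muscle list (5.32), the synovial and fibrous list (8.79) and the list of FABP3, FABP5 and CRABP2 (6.47). Its erythroid (6.41) and neutrophil (4.89) means were not the lowest. Femur affected 1, the lowest femoral sample in FABP4 at 4.31, likewise had the lowest adipocyte (7.53) and muscle (5.44) means of its group. It differed from the pair in other lists. It had the highest bone (9.25), erythroid (7.91) and neutrophil (7.05) means of its group. Its vessel (6.75) and macrophage (5.85) means were not the lowest. Humerus affected 7 had the lowest FABP4 of its group (8.06). Its adipocyte (7.55), macrophage (7.02), bone (8.40) and osteoclast (7.66) means were the lowest of that group, and its vessel mean (8.38) was not. The part of vessels, marrow or bone in the FABP4 levels was not tested.

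For each of the 3 genes the 5 genes most like it were taken among 5902, by Pearson's r over 21 samples after the mean of each group was subtracted. For FABP4 these were RAMP1, a co-receptor of vasoactive peptides (0.87), SLC27A6, a fatty acid transporter (0.87), ITGB3, the integrin chain of platelets and osteoclasts (0.86), PPL, periplakin (0.86), and MPZL2, an adhesion protein (0.85). Within the sites ITGB3 had 0.91 in the femur and 0.91 in the humerus, and PPL had 0.95 and 0.87. The others had 0.64 to 0.71 in the femur and 0.89 to 0.94 in the humerus. The genes were picked by r over these same samples, so r within a site is no separate check. All 5 were lower in the femur than in the humerus, by 0.77 to 3.1 on the log2 scale.

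For ADIPOQ the nearest were PTGS2, the inducible prostaglandin synthase (0.67), SARS, a tRNA synthetase (0.66), and ATF3, a stress-induced transcription factor (0.65). SLC34A2, a phosphate transporter (0.64), and UGT2B31, a glucuronosyltransferase (0.64), followed. For LEP they were KIAA0586 (0.71), MEF2A, a muscle transcription factor (0.68), MC2R, the corticotropin receptor (0.68), CYLD, a deubiquitinase (0.67), and ALDH7A1, an aldehyde dehydrogenase (0.67). None of these lists named another of the 3 genes. For ADIPOQ and LEP the likeness lay mainly in the femur, where KIAA0586 had 0.90 with LEP against 0.30 in the humerus, and PTGS2 had 0.76 with ADIPOQ against 0.28.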

How the data were processed

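Total RNA of articular cartilage was hybridised to 23 Affymetrix Porcine Genome Arrays, 9 of femur and 14 of humerus. The deposited table gives 1 log2 level per probe set and array, and the array medians run from 6.05 to 6.33. GCOS 1.1.1 is named in the submitters' processing notes. No source used here names the normalization, and the values were kept as the authors deposited them. For arrays, the number of samples limits the precision. Gene names came from the platform annotation, which gave 1 symbol for 10099 probe sets, and several for 198; 13826 probe sets are unnamed here.

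Pairs of arrays of a group whose values differed by an SD under 0.25 were averaged (2 pairs, the next closest at 0.340). The 124 control probe sets and the 7200 under the filter were left out. limma 3.58.1 in R 4.3.3 (lmFit, eBayes) fitted status within each site in a model of 4 group means, status over both sites with site as a term, and site with status as a term. Single probe sets were tested by exact permutation in scipy 1.17.1, and relations by permutation within each site. The fits were tested on simulated data. No paired analysis was made, since the labels give no pairing.

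The genes named were all probe sets of FABP4, ADIPOQ and LEP, chosen adipocyte, receptor and FABP family genes and every called adipocyte list gene. At most 3 genes per other list by size of difference and the 5 most alike per gene were to be added. List genes named for their r with FABP4 go beyond that rule and were chosen after their values were seen. The members and lists were chosen with earlier results of these data known. Alternatives covered filter, scaling, weights, averaging, probe set choice and each sample left out.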

Additional observations from a re-analysis of the deposited data

Results flagged for a closer look

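In 76 groups of 4 to 7 values, 11 had a highest or lowest sample with an unusually wide gap to the others, where chance gives about 1 in 20. Among the 3 genes, the LEP control probe set "M" read 7.13 in humerus affected 1, above 6.40 to 6.67 in the others of its group. ADIPOQ read 5.96 in femur affected 3, above 5.54 to 5.58 in the other femoral affected samples.

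The mean of FABP3, FABP5 and CRABP2 was 7.39 in femur affected 4, above 7.05 to 7.09, and 6.47 in the averaged pair femur non-affected 1 and 2, below 8.08 to 8.26. The erythroid mean was 7.91 in femur affected 1, above 6.31 to 6.43. It was 8.38 in humerus non-affected 2, above 6.28 to 7.02. The neutrophil mean was 7.05 in femur affected 1, above 4.16 to 4.65. The bone mean was 8.78 in femur non-affected 4, above 7.29 to 7.44. The muscle mean was 8.44 in humerus affected 8, above 5.19 to 5.49, and 6.10 in humerus non-affected 6, above 5.07 to 5.33. The mean of the synovial and fibrous list was 9.61 in humerus affected 8, below 10.3 to 10.7. FABP4 itself had no such value in any group, humerus non-affected 5 included.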

How the results depend on the processing

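No status or contrast difference of FABP4, ADIPOQ or the brightest LEP probe set was called under any of the 8 to 10 alternatives run for it or with any sample left out. Their site differences were called under all alternatives but 1: FABP4 among non-affected samples alone was -1.95 (adjusted p = 0.216). Leaving out each sample in turn gave FABP4 site differences between -4.06 and -3.27. It turned the sign of 2 uncalled differences, ADIPOQ in the femur at -0.06 without femur affected 3 and LEP over both sites at -0.01 without femur non-affected 3.

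Counts over all probe sets depended more on the choices. In the femur, the 192 calls with status among 16799 probe sets became 600 with 23 separate arrays and 59 with array weights. With the brightest probe set of each gene there were 67 calls among 5905 probe sets. A fit of femoral samples alone gave 4, and leaving out 1 sample gave between 53 and 450. The contrast of status between the sites, 45 calls, gave 220 with 23 separate arrays, 21 with array weights and between 15 and 98 with 1 sample left out. Status over both sites, with no call, had 22 when both sites weighed the same. Between the sites, beside 8707 calls among 16799 probe sets, there were 3093 among the 5905 brightest probe sets. Affected samples alone gave 5940. Non-affected samples alone gave 5474, and 5762 when humerus non-affected 5 was left out as well, chosen after seeing the data. Fewer probe sets or samples entered several of these fits, and the cause of the other changes was not tested.

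No paired analysis was possible because the labels do not say which animals were sibs and the replicate numbers follow the order of deposit. The dimmest LEP probe set was at the floor in 2 samples.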
